A study of Mus musculus with 9 samples.

Results

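The antioxidant and NRF2 target genes described here were 10 protein-coding genes, *Nqo1*, *Hmox1*, *Gclc*, *Gclm*, *Srxn1*, *Txnrd1*, *Sod1*, *Sod2*, *Prdx3* and *Cat*. They were chosen by name from the 52636 Ensembl genes of a bulk RNA sequencing count table, with earlier results of these data known. All 10 passed the filter on low counts, as 16322 genes did. RNA came from the left ventricle of 16-week-old C57BL6J mice in 9 libraries, 5 labelled VDAC2 WT (libraries 1 to 5) and 4 labelled VDAC2 KO (libraries 6 to 9). The KO was a *Vdac2* flox/flox deletion driven by αMHC-Cre, which acts in cardiac myocytes, so other cells of the ventricle keep the gene. WT mice were littermates carrying either the flox allele or Cre, and which of these a library came from is not given in the sources used here.

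NRF2 is a transcription factor that is held in the cytoplasm and sent for degradation by KEAP1. Oxidants and electrophiles modify KEAP1, after which NRF2 enters the nucleus and, together with a small MAF protein, binds antioxidant response elements. BACH1, a heme-binding repressor, competes for the same elements. Their target genes make glutathione and recycle thioredoxin, and they break down quinones and heme. The superoxide dismutases, peroxiredoxins and catalase remove superoxide and hydrogen peroxide directly, and the heart, which is rich in mitochondria, holds much of this machinery in the mitochondrial matrix.

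Between 27345052 and 44673988 reads were counted per library. Levels are given as CPM, read counts scaled to a common library size with TMM factors, and 3 counts corresponded to 0.0693 to 0.114 CPM, which covers counting error only. *Vdac2* (chromosome 14 of GRCm38, 21825238 to 21845879), the outer mitochondrial membrane channel deleted in the KO, went against several labels. Libraries 1 to 5, all labelled WT, held it at 20.2, 366, 58.5, 365 and 21.3 CPM. Libraries 6 to 9, all labelled KO, held it at 384, 20.5, 421 and 19.1 CPM. Groups are therefore called "labelled WT" and "labelled KO", and no library was given another genotype. All libraries labelled WT shared 1 flow cell lane and all labelled KO the other. The labels also coincided with the sex-linked *Xist*, which ran from 335 to 587 CPM under the KO label and did not pass 0.152 CPM under the WT label. Lane and sex cannot be told apart from the label.

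Library 3, labelled WT, stood apart from the rest. Mitochondrially encoded genes took 9.07% of its reads, against 16.8% to 19.2% in the other 8 libraries. Its summed level of 6 cardiomyocyte markers was 11766 CPM, against 40962 to 57442 CPM in the others, while that of 5 fibroblast markers was 8069 CPM against 1097 to 1914 CPM and that of 4 macrophage markers was 1164 CPM against 189 to 451 CPM. In bulk tissue, fewer cells of a type and less RNA per cell cannot be told apart. The study left out a WT sample for low RNA quality without naming it, and whether library 3 is that sample is not given. The part of RNA quality in the values of library 3 was not tested. Fold changes of the antioxidant genes between the labels are given with and without library 3, and medians of the pathway lists with all 9 libraries.

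The genes were set out in 2 ways. The first was the comparison of the deposited labels, tested with edgeR, where SE is the standard error of a log2 fold change. The second was a description without a test, in which the libraries were grouped by their measured *Vdac2* level and not by genotype. Libraries 1, 5, 7 and 9 had *Vdac2* under 100 CPM (the highest was 21.3 CPM), and libraries 2, 4, 6 and 8 had it over 300 CPM (the lowest was 365 CPM). Library 3, at 58.5 CPM, is shown apart. Each *Vdac2* set holds 2 libraries of each label, apart from library 3.

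Between the deposited labels, edgeR called 0 of the 10 genes at an adjusted p under 0.05, and 0 reached an unadjusted p under 0.05. DESeq2 called 0 of the 9 for which it gave an adjusted p, and gave none for *Hmox1*. Over all tested genes, 9 of 16322 were called (0.0551%). *Vdac2*, the deleted gene, was not called either, with a log2 fold change of 0.35 (SE 1.19, adjusted p = 0.92) in edgeR. Each label holds libraries with low and with high *Vdac2*, so this comparison cannot show whether the deletion changes the 10 genes. The median log2 fold change of the 10 genes, labelled KO minus labelled WT, was -0.034, beside -0.018 over all tested genes. Leaving out 1 library moved the first median to between -0.081 (without library 9) and 0.017 (without library 6), with -0.061 without library 3 and 0.0049 without library 1. 4 of the 10 estimates were above zero, those of *Nqo1*, *Sod1*, *Sod2* and *Prdx3*. Estimates ran from -1.47 for *Hmox1* to 0.32 for *Sod2*.

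**Figure D1:**
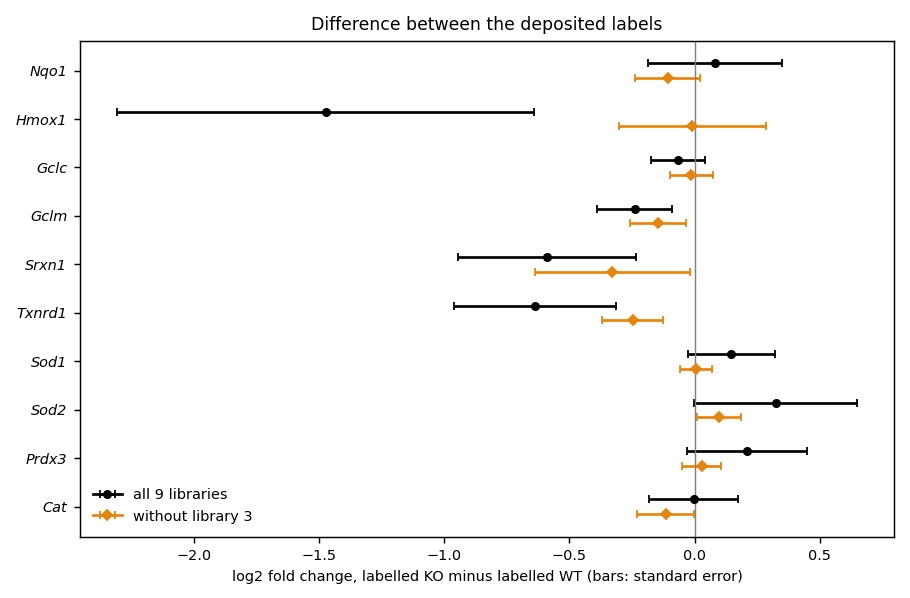
Log2 fold change of each gene between the deposited labels (labelled KO minus labelled WT, horizontal axis) with all 9 libraries (black circles) and without library 3 (orange diamonds), with bars of 1 standard error. *Hmox1* lay at -1.47 with all libraries and at -0.0095 without library 3.

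Set out by *Vdac2* level, 3 of the 10 genes did not overlap between the sets. *Hmox1*, *Gclc* and *Srxn1* were higher in each of libraries 1, 5, 7 and 9 than in any of libraries 2, 4, 6 and 8, and 0 of the 10 were lower without overlap. Over all tested genes, 7.16% were higher in this way and 4.93% lower. Without library 9, 5 of the 10 did not overlap, with *Gclm* also higher and *Sod2* lower. The shares over all genes were then 9.55% higher and 8.30% lower. These values come from the arrangement that the rule itself names and were not tested.

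**Figure D2:**
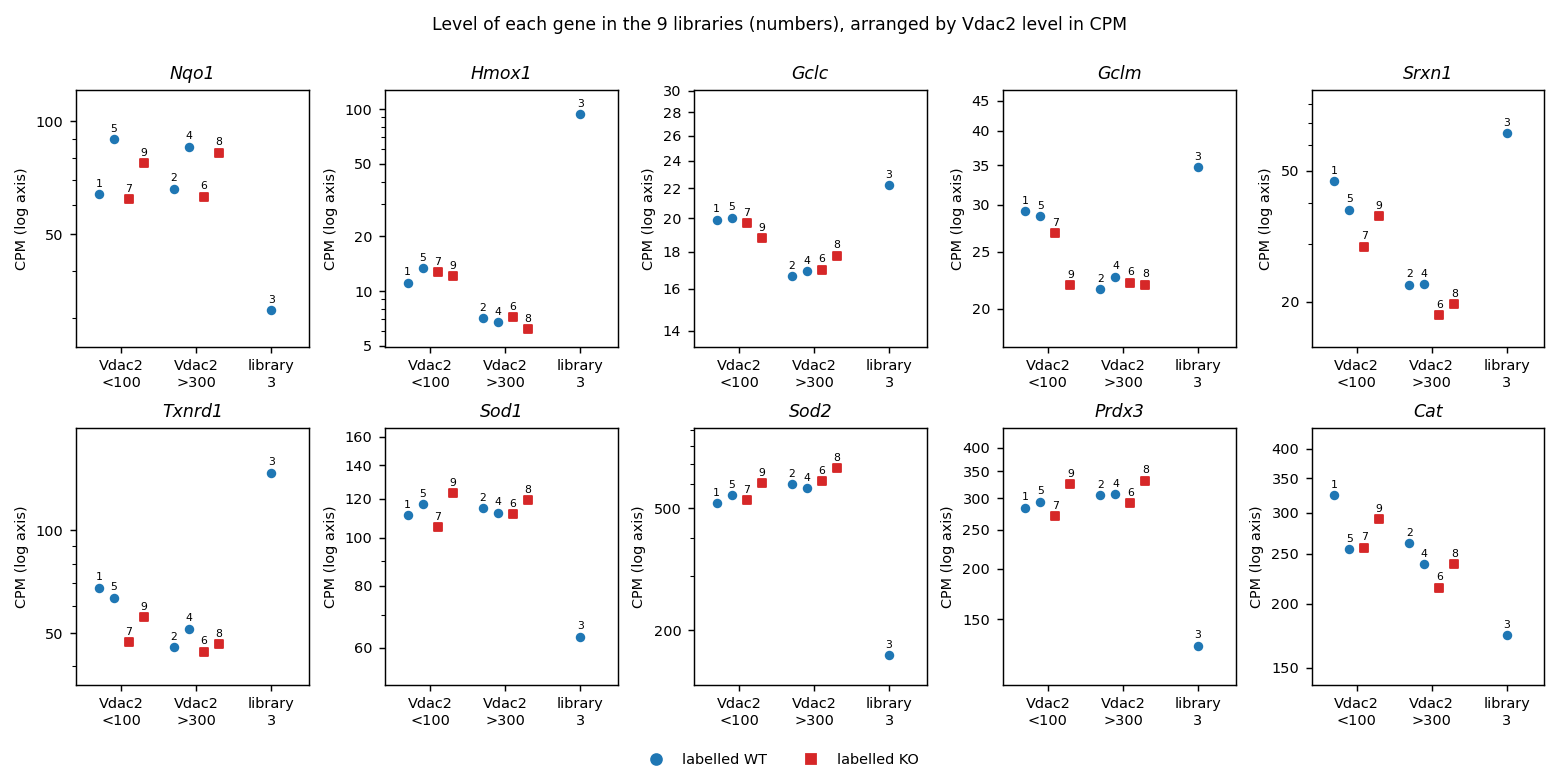
Level of each gene in CPM (vertical log axis) in each library, numbered, with libraries placed by *Vdac2* under 100 CPM, *Vdac2* over 300 CPM, and library 3. Circles are libraries labelled WT and squares those labelled KO. *Hmox1*, *Gclc* and *Srxn1* do not overlap between the first and second columns, and library 3 lies outside the other 8 libraries in each panel.

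*Hmox1* (ENSMUSG00000005413, chromosome 8, 75093621 to 75100589) encodes heme oxygenase-1, which splits heme into biliverdin, iron and carbon monoxide and is repressed by BACH1. It was at 11.1, 13.3, 12.7 and 12.1 CPM in libraries 1, 5, 7 and 9, at 7.13, 6.73, 7.19 and 6.18 CPM in libraries 2, 4, 6 and 8, and at 94.2 CPM in library 3. The lowest library with *Vdac2* under 100 CPM thus lay above the highest with *Vdac2* over 300 CPM, in libraries of both labels. Between the labels, the log2 fold change of *Hmox1* was -1.47 (SE 0.83, adjusted p = 0.68). Without library 3 it was -0.0095 (adjusted p = 0.99).

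*Nqo1* (ENSMUSG00000003849, chromosome 8, 107388225 to 107403206) encodes a quinone reductase and is widely used as a readout of NRF2. It was at 64.0, 89.8, 61.9 and 77.4 CPM in libraries 1, 5, 7 and 9, at 66.3, 85.6, 63.1 and 82.6 CPM in libraries 2, 4, 6 and 8, and at 31.4 CPM in library 3. The sets overlapped, and the values spread over the same range in each. The log2 fold change between the labels was 0.080 (SE 0.27, adjusted p = 0.92). Without library 3 its sign changed, to -0.11 (adjusted p = 0.79).

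*Gclc* and *Gclm* encode the catalytic and modifier subunits of glutamate-cysteine ligase, the rate-limiting enzyme of glutathione synthesis. *Gclc* (ENSMUSG00000032350, chromosome 9, 77754535 to 77794485) was at 19.9, 20.04, 19.7 and 18.8 CPM in libraries 1, 5, 7 and 9, at 16.6, 16.9, 17.0 and 17.8 CPM in libraries 2, 4, 6 and 8, and at 22.3 CPM in library 3. The sets did not overlap, but the gap between them, from 17.8 to 18.8 CPM, was narrow. *Gclm* (ENSMUSG00000028124, chromosome 3, 122245557 to 122270732) was at 29.3, 28.7, 26.9 and 21.9 CPM in libraries 1, 5, 7 and 9, at 21.6, 22.7, 22.1 and 22.0 CPM in libraries 2, 4, 6 and 8, and at 34.7 CPM in library 3. *Gclm* overlapped through library 9 alone, which lay among libraries 2, 4, 6 and 8. Between the labels, *Gclc* had a log2 fold change of -0.066 (SE 0.11, adjusted p = 0.83). *Gclm* had one of -0.24 (SE 0.15, adjusted p = 0.68). Without library 3 the values were -0.013 for *Gclc* and -0.15 for *Gclm*.

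*Srxn1* and *Txnrd1* keep thiol peroxidases and thioredoxin in use. *Srxn1* (ENSMUSG00000032802, chromosome 2, 152105516 to 152111376) encodes sulfiredoxin, which restores peroxiredoxins that peroxide has overoxidized. It was at 46.6, 38.1, 29.4 and 36.5 CPM in libraries 1, 5, 7 and 9, at 22.5, 22.6, 18.2 and 19.6 CPM in libraries 2, 4, 6 and 8, and at 65.2 CPM in library 3. The sets of *Srxn1* did not overlap, and within each set the libraries labelled WT lay above those labelled KO. Its log2 fold change between the labels was -0.59 (SE 0.35, adjusted p = 0.68), and without library 3 it was -0.33 (adjusted p = 0.72).

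*Txnrd1* (ENSMUSG00000020250, chromosome 10, 82833951 to 82897712) encodes the cytosolic thioredoxin reductase. It was at 68.0, 63.5, 47.2 and 55.8 CPM in libraries 1, 5, 7 and 9, at 45.6, 51.6, 44.2 and 46.4 CPM in libraries 2, 4, 6 and 8, and at 148 CPM in library 3. The sets overlapped because library 7, labelled KO, lay below library 4, labelled WT. Within either label the libraries with low *Vdac2* lay above those with high *Vdac2*. The log2 fold change between the labels was -0.64 (SE 0.32, adjusted p = 0.68). Without library 3 it was -0.25 (adjusted p = 0.45).

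*Prdx3* (ENSMUSG00000024997, chromosome 19, 60864051 to 60874556) encodes the peroxiredoxin of the mitochondrial matrix. It was at 284, 294, 271 and 325 CPM in libraries 1, 5, 7 and 9, at 306, 306, 291 and 331 CPM in libraries 2, 4, 6 and 8, and at 129 CPM in library 3. The sets overlapped, since libraries 5 and 9 lay above library 6. Within the WT label, libraries 1 and 5 lay below libraries 2 and 4. Its log2 fold change between the labels was 0.21 (SE 0.24, adjusted p = 0.76), and 0.028 without library 3.

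*Sod2* (ENSMUSG00000006818, chromosome 17, 13006846 to 13040063) encodes the manganese superoxide dismutase of the matrix. It was at 520, 553, 532 and 603 CPM in libraries 1, 5, 7 and 9, at 600, 583, 615 and 676 CPM in libraries 2, 4, 6 and 8, and at 166 CPM in library 3. Within either label, the libraries with low *Vdac2* lay below those with high *Vdac2*, but library 9, labelled KO, lay above libraries 2 and 4, labelled WT, so the sets overlapped. The log2 fold change between the labels was 0.32 (SE 0.33, adjusted p = 0.74). Without library 3 it was 0.097 (adjusted p = 0.70).

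*Sod1* (ENSMUSG00000022982, chromosome 16, 90220754 to 90226329) encodes the copper and zinc superoxide dismutase of the cytosol. It was at 111, 117, 105 and 123 CPM in libraries 1, 5, 7 and 9, at 115, 112, 111 and 119 CPM in libraries 2, 4, 6 and 8, and at 63.2 CPM in library 3. The libraries with high *Vdac2* lay within the range of those with low *Vdac2*. Its log2 fold change between the labels was 0.15 (SE 0.17, adjusted p = 0.77), and 0.0051 without library 3. The level of *Sod1* is uncertain, since 23.1% of the 50-base stretches of its main transcript also occur in the pseudogene *Gm8566*, which itself held 3 to 12 counts per library.

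*Cat* (ENSMUSG00000027187, chromosome 2, 103453849 to 103485160) encodes catalase, the peroxisomal enzyme that breaks down hydrogen peroxide. It was at 325, 255, 257 and 292 CPM in libraries 1, 5, 7 and 9, at 262, 239, 215 and 238 CPM in libraries 2, 4, 6 and 8, and at 174 CPM in library 3. The sets overlapped, since library 2 lay above libraries 5 and 7. With CPM from the plain library total, *Cat* did not overlap and was higher in libraries 1, 5, 7 and 9, as were 11.3% of all tested genes at that scaling. The log2 fold change between the labels was -0.0030 (SE 0.18, adjusted p = 0.995), and -0.12 without library 3.

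Library 3 was the highest of the 9 libraries for *Hmox1*, *Gclc*, *Gclm*, *Srxn1* and *Txnrd1*, and the lowest for *Nqo1*, *Sod1*, *Sod2*, *Prdx3* and *Cat*. With CPM from the plain library total, *Cat* in library 3 lay within the range of the others, and the other 9 genes kept their place. The share was not particular to these genes. Library 3 was the highest library for 37.7% and the lowest for 37.4% of all tested genes, and with the plain library total for 56.6% and 22.3%. Its summed cardiomyocyte markers were lower and its summed fibroblast and macrophage markers higher than elsewhere, with the values given above. Of the 5 fibroblast markers, *Dcn* went the other way, at 454 CPM in library 3 against 560 to 935 CPM in the others, although with the plain library total library 3 was not the lowest for it. The part of these cells in the levels of the antioxidant genes was not tested.

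Per length of the main transcript, and without library 3, the levels of several neighbouring genes overlapped. RPKM here is CPM divided by the length in kilobases of the principal transcript of GENCODE M21. *Prdx3* had a median of 203 RPKM (range 183 to 224) and *Sod1* one of 177 RPKM (164 to 192), and these ranges overlapped. *Sod2*, with a median of 101 RPKM (88.7 to 115), and *Cat*, with one of 98.0 RPKM (82.2 to 124), overlapped each other and lay below both. *Nqo1* stood alone at 46.2 RPKM (39.9 to 57.8). The other genes of the NRF2 response were lower. *Txnrd1* had a median of 14.9 RPKM (13.3 to 20.5), and its range overlapped that of *Srxn1*, with 9.25 RPKM (6.48 to 16.6). *Hmox1* at 5.84 RPKM (3.94 to 8.48), *Gclc* at 5.34 RPKM (4.86 to 5.86) and *Gclm* at 4.01 RPKM (3.86 to 5.24) overlapped one another, and *Hmox1* also overlapped *Srxn1*. *Hmox1* reached 60.1 RPKM in library 3, above *Nqo1* there at 20.2 RPKM.

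**Figure D3:**
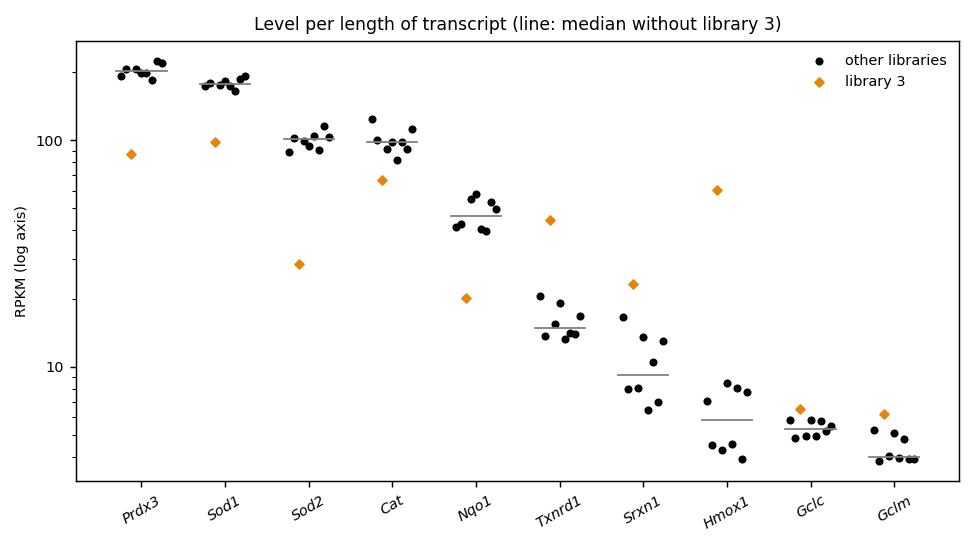
Level of each gene per length of its principal transcript in RPKM (vertical log axis), with 1 point per library, library 3 as an orange diamond and a line at the median of the other 8 libraries. *Prdx3*, *Sod1*, *Sod2* and *Cat* lie above *Nqo1*, and the other 5 genes below it, outside library 3.

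Promoter windows, from 250 bases before to 50 after an annotated start, were searched on both strands for the core of the antioxidant response element, TGACNNNGC. RefSeq windows of GRCm38.p6 were matched for 8 of the 10 genes, those other than *Hmox1* and *Gclc*, and 4 of the 8 held the core, *Gclm*, *Txnrd1*, *Sod1* and *Srxn1*. Of 27025 genes with a window, 14.0% held it. The matches are shown in 30 bases each, 5′ to 3′ on the strand of the gene, with the match in capitals. They hold the core of the element that NRF2 binds, but binding of NRF2 at these places was not measured. All 4 matches lie on the opposite strand, so that the core reads from right to left. The match of *Gclm* begins 134 bases before the start, and the 30 bases shown lie at chr3:122245413-122245442. That of *Txnrd1* begins 92 bases before 1 of 3 annotated starts of the gene, with the 30 bases at chr10:82859104-82859133. That of *Sod1* begins 56 bases before the start, with the 30 bases at chr16:90220696-90220725. The match of *Srxn1* begins 28 bases past the start, with the 30 bases at chr2:152105542-152105571. These distances are counted from the RefSeq starts, which for *Sod1* and *Srxn1* differ from the GENCODE starts given above.
Gclm: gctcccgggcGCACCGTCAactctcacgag
Txnrd1: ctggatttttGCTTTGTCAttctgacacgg
Sod1: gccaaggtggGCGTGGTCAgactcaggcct
Srxn1: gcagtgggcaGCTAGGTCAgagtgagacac

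Of these 4 genes, *Srxn1* did not overlap between the *Vdac2* sets, and *Gclm*, *Txnrd1* and *Sod1* did. Over all tested genes, 7.16% were higher and 4.93% lower without overlap. A link between the match and the *Vdac2* sets was not tested. A match describes letters in these windows only, and elements outside them were not searched.

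Summed macrophage and fibroblast markers were also higher in libraries 1, 5, 7 and 9. The shares to set beside the counts of single markers are again 7.16% higher and 4.93% lower over all tested genes. Of 4 macrophage markers, 3 (*Adgre1*, *Cd68* and *Lyz2*) did not overlap, and the sum of all 4 was 345 to 451 CPM, against 189 to 300 CPM in libraries 2, 4, 6 and 8. Of 5 fibroblast markers, *Col3a1* and *Postn* did not overlap, with a sum of 1862 to 1914 CPM against 1097 to 1460 CPM. The sum of the 6 cardiomyocyte markers was lower, at 40962 to 46932 CPM against 48122 to 57442 CPM, although no single one of them separated the sets. Of the 4 endothelial markers, *Pecam1* alone did not overlap and was lower, but the gap, from 173.495 to 173.558 CPM, was very narrow. The sums of the 4 were 396 to 520 and 510 to 606 CPM. Sums of 3 smooth muscle markers (250 to 542 against 227 to 303 CPM) and 3 erythroid markers (595 to 1165 against 508 to 1731 CPM) overlapped. The part of these cells in the levels of *Hmox1*, *Gclc* and *Srxn1* was not tested. Markers of other tissue were low. The sum of 3 atrial markers was 1.86 to 4.13 CPM, with at most 2 counts of *Sln*, 42 of *Myl7* and 111 of *Myl4* in any library, and *Myl4* was higher without overlap in libraries 1, 5, 7 and 9 (1.87 to 2.43 against 1.59 to 1.86 CPM). The sum of 3 hepatocyte markers was 0.186 to 0.531 CPM, with at most 3 counts of *Alb*, 5 of *Apoa1* and 18 of *Ttr*.

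**Figure D4:**
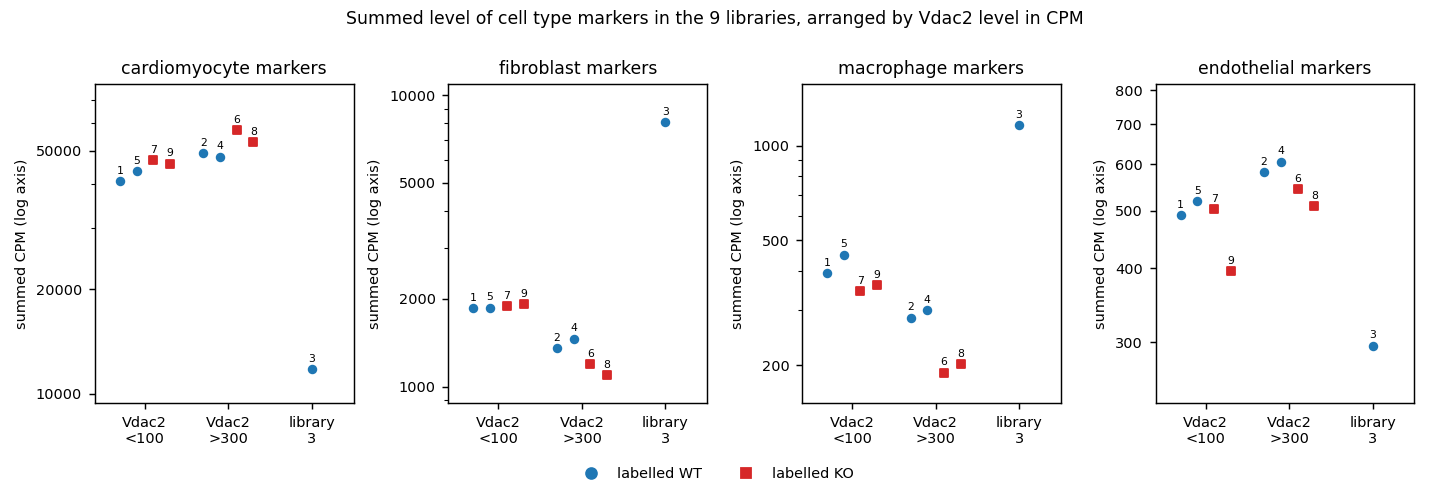
Summed CPM of cardiomyocyte, fibroblast, macrophage and endothelial markers (vertical log axes) in each numbered library, placed by *Vdac2* level as for the antioxidant genes. Circles are libraries labelled WT and squares those labelled KO. The fibroblast and macrophage sums of libraries 1, 5, 7 and 9 lie above those of libraries 2, 4, 6 and 8, and the cardiomyocyte sums below them.

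The regulators of NRF2 were measured in the same libraries. *Nfe2l2*, which encodes NRF2 itself, was at 70.4, 73.4, 71.1 and 75.7 CPM in libraries 1, 5, 7 and 9, at 65.9, 67.6, 63.9 and 65.6 CPM in libraries 2, 4, 6 and 8, and at 97.1 CPM in library 3. The sets did not overlap, and the highest of the second set was within 3 CPM of the lowest of the first. *Keap1*, its inhibitor, overlapped, at 39.3 to 49.95 CPM and 40.1 to 47.2 CPM, with 32.6 CPM in library 3. Of all 10 regulators, *Nfe2l2*, *Mafg* and *Sqstm1* were higher without overlap in libraries 1, 5, 7 and 9, and 0 were lower, beside 7.16% and 4.93% of all tested genes. *Mafg* encodes a small MAF partner of NRF2, and *Sqstm1* encodes p62, which can hold KEAP1 away from NRF2.

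Between the labels, 0 of the 10 regulators were called by edgeR, and 2 had an unadjusted p under 0.05, as did 997 of all 16322 tested genes. *Bach1*, the repressor of *Hmox1*, lay at 48.2, 48.5, 48.7, 46.9 and 45.7 CPM under the WT label (libraries 1 to 5) and 53.6, 58.1, 57.7 and 57.4 CPM under the KO label (libraries 6 to 9). The labels did not overlap, but the share of all tested genes that separate between the labels was not counted. The log2 fold change of *Bach1* was 0.25 (SE 0.065, adjusted p = 0.68). DESeq2 called it (adjusted p = 0.015), while the range over all alternatives was 0.015 to 0.90. *Keap1* had a log2 fold change of 0.25 (SE 0.096, adjusted p = 0.68), or 0.18 without library 3, and *Mafk*, another small MAF gene, one of -0.20 (SE 0.36, adjusted p = 0.84). The sign of *Mafk* changed without library 3, to 0.25.

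Of 24 other NRF2 target genes, 23 were tested, and 0 were called between the labels. An unadjusted p under 0.05 was found for 1 of the 23, beside 997 of all 16322 tested genes. The median log2 fold change of the 23 was -0.077. The largest estimates among genes of at least 1 CPM were those of *G6pdx* and *Pgd*, which make NADPH in the pentose phosphate pathway, and *Ugdh*, which makes UDP-glucuronate. *G6pdx* had a log2 fold change of -0.78 (SE 0.41), *Ugdh* one of -0.76 (SE 0.46) and *Pgd* one of -0.53 (SE 0.35), each with an adjusted p of 0.68. Without library 3 they were -0.26, -0.12 and -0.085. By *Vdac2* level, 10 of the 23 were higher without overlap in libraries 1, 5, 7 and 9, and 0 were lower, while over all tested genes, 7.16% were higher and 4.93% lower. The 3 named genes were among them. *G6pdx* was at 8.78 to 11.4 CPM against 6.09 to 7.80 CPM, *Pgd* at 16.5 to 19.7 CPM against 13.0 to 16.2 CPM, and *Ugdh* at 16.0 to 19.96 CPM against 13.1 to 14.1 CPM. Library 3 was far above both sets for all 3, at 29.5, 47.7 and 62.9 CPM.

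The glutathione, thioredoxin and oxidant genes gave no call between the labels either. Of 19 genes of the glutathione system, 2 had an unadjusted p under 0.05, beside 997 of all 16322 tested genes. The median log2 fold change of the 19 was -0.0060. *Gpx7*, a glutathione peroxidase of the endoplasmic reticulum, had a log2 fold change of -0.86 (SE 0.54), *Ggt7* one of -0.71 (SE 0.48) and *Mgst1*, a microsomal glutathione transferase, one of -0.60 (SE 0.23), each with an adjusted p of 0.68. Without library 3, *Gpx7* lay at -0.019, *Ggt7* at -0.069 and *Mgst1* at -0.72. By *Vdac2* level, 3 of the 19 (*Gpx1*, *Gpx4* and *Chac1*) were higher without overlap and 1 (*Gstk1*) was lower, against 7.16% and 4.93% of all tested genes.

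Of 17 further thioredoxin, peroxiredoxin and superoxide dismutase genes, 1 had an unadjusted p under 0.05, beside 997 of all 16322 tested genes. The median log2 fold change of the 17 was 0.19. Library 3 was the lowest library for 10 of the 17 and the highest for 4, beside 37.4% and 37.7% of all tested genes. With the plain library total these were 9 and 8, beside 22.3% and 56.6%. The gene at an unadjusted p under 0.05 was *Sod3*, the extracellular superoxide dismutase. It was at 7.83 to 27.9 CPM in the libraries labelled WT and 5.06 to 6.99 CPM in those labelled KO, which did not overlap. For *Sod3* too, the share of all tested genes that separate between the labels was not counted. The log2 fold change of *Sod3* was -1.13 (SE 0.40, adjusted p = 0.68). Without library 3 it was -0.61 (adjusted p = 0.073). *Sesn2*, a stress-induced sestrin, had a log2 fold change of -0.45 (SE 0.41, adjusted p = 0.72) and *Sesn1* one of 0.41 (SE 0.30, adjusted p = 0.69). Without library 3 they were -0.14 and 0.20. By *Vdac2* level, *Txn1*, *Prdx4* and *Sesn2* were higher without overlap, and *Txnrd2* and *Msra* were lower, where the shares over all tested genes were again 7.16% and 4.93%. *Txnrd2* encodes the mitochondrial thioredoxin reductase, and its gap was narrow, from 19.1 CPM in library 7 to 19.3 CPM in library 2.

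Of 7 genes of oxidant sources, 2 had an unadjusted p under 0.05, beside 997 of all 16322 tested genes, and 0 were called between the labels. The median log2 fold change of the 7 was -0.51. Library 3 was the highest library for 5 of the 7 and the lowest for 2, beside 37.7% and 37.4% of all tested genes. With the plain library total these were again 5 and 2, beside 56.6% and 22.3%. *Ncf1* and *Cybb*, subunits of the phagocyte NADPH oxidase, had log2 fold changes of -1.12 (SE 0.51) and -0.78 (SE 0.34), and *Nox4* one of -0.78 (SE 0.72). The adjusted p was 0.68 for *Ncf1* and *Cybb* and 0.72 for *Nox4*. The 2 at an unadjusted p under 0.05 were *Cybb* and *Maoa*. Without library 3, *Ncf1* lay at -0.45 and *Cybb* at -0.46. *Nox4* was at 17.7 CPM in library 3 and 1.88 to 4.99 CPM elsewhere, and its sign changed without library 3, to 0.38. By *Vdac2* level, *Ncf1* was higher without overlap (8.28 to 11.5 CPM against 4.97 to 7.75 CPM), *Cybb* overlapped (21.9 to 35.7 CPM against 14.6 to 28.8 CPM), and *Maob*, a monoamine oxidase of the outer mitochondrial membrane, was lower, with the same 7.16% and 4.93% over all tested genes.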

How the data were processed

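Total RNA of the left ventricle was depleted of ribosomal RNA, made into stranded libraries and sequenced as 50-base single-end reads. According to the submitters' processing notes, reads were aligned to GRCm38 with STAR 2.7.2c and counted with featureCounts 1.6.3. The authors deposited raw counts per Ensembl gene, without normalization. The strand setting and the handling of multiply aligned reads are not given in the sources used here, so reads of *Sod1* and *Scaf4*, of *Gclm* and the overlapping *Gm17494* and *Gm6061*, and of *Txnrd1* and the overlapping *Eid3*, *Gm38560* and *Gm47073* may not be fully told apart. All 9 columns were matched to samples by library number, and symbols were found for 52403 identifiers. Coordinates are from GENCODE M21.

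The deposited counts were analysed in R 4.3.3 with edgeR 4.0.16, using filterByExpr, TMM normalization and the robust quasi-likelihood F-test between the deposited labels, with Benjamini-Hochberg adjustment over all 16322 tested genes and calls at an adjusted p under 0.05. Standard errors were derived from each log2 fold change and its F statistic. The script was tested on simulated data. No pair of libraries of a label agreed within sampling noise (lowest chi-square per degree of freedom 7.10). Nothing in the labels says how the animals relate, so p-values measure the spread between these libraries. The study left out 1 WT sample for RNA quality without naming it, so all 9 libraries were used.

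The genes and lists were chosen with earlier results of these data known. Named were the 10 genes, *Vdac2*, *Nfe2l2*, *Keap1* and, of each pathway list, every gene called and the 3 with the largest absolute log2 fold change at a mean of at least 1 CPM. Other genes are named where a count of 5 or fewer needed it. The arrangement by *Vdac2* level was described without averages or a test. Alternatives were DESeq2 1.42.0, RLE scaling, other filters, leaving out mitochondrially encoded genes, limma 3.58.1 with quality weights per library, and leaving out each library.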

Additional observations from a re-analysis of the deposited data

Results flagged for a closer look

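Within the libraries of 1 label, 18 of 54 sets of values held a library farther from its neighbour than Dixon's test allows at the 95% level. Chance alone gives about 1 in 20 for genes not chosen by their values. Most of the pathway genes were named for their fold change between the labels, which library 3 enters, so that share is not the number to expect here. In 16 of the 18, that library was library 3, labelled WT. Among the antioxidant genes it was the highest for *Hmox1* (94.2 CPM, next 13.3 CPM) and *Txnrd1* (148 CPM, next 68.0 CPM), and the lowest for *Sod1* (63.2 CPM, next 111 CPM), *Sod2* (166 CPM, next 520 CPM) and *Prdx3* (129 CPM, next 284 CPM). Among the regulators and other NRF2 targets it was the highest for *Nfe2l2* (97.1 CPM), *Mafk* (82.3 CPM), *G6pdx* (29.5 CPM), *Pgd* (47.7 CPM) and *Ugdh* (62.9 CPM). In the further lists it was the highest for *Gpx7* (32.0 CPM), *Ggt7* (3.64 CPM), *Sod3* (27.9 CPM), *Nox4* (17.7 CPM) and *Ncf1* (36.3 CPM), and the lowest for *Sesn1* (48.8 CPM).

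The other 2 were in libraries labelled KO. *Gclm* was highest in library 7, at 26.9 CPM with the next at 22.1 CPM, and *Bach1* was lowest in library 6, at 53.6 CPM with the next at 57.4 CPM.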

How the results depend on the processing

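None of the 10 antioxidant genes was called between the labels under any of the 15 alternatives, although DESeq2 gave no adjusted p for *Hmox1*. Without library 2, labelled WT, 1 of the 10 reached an unadjusted p under 0.05 in edgeR, as did 1202 of all 16322 tested genes. DESeq2 called 1 gene of the other pathway lists, *Bach1*, and gave no adjusted p for *Gpx7* and *Nox4*, and the other alternatives called 0. Over all genes, DESeq2 called 62, library quality weights 79 and the filter of at least 10 counts in every library 0 of 14528, with 875 at an unadjusted p under 0.05 in edgeR. With each library left out, the count over all genes ran from 5 to 62, the latter without library 3, labelled WT. The *Vdac2* log2 fold change ran from -0.23 to 0.86 with each library left out, and was below zero without library 6 (-0.11) or library 8 (-0.23). The sign of *Cat*, -0.0030 with all libraries, changed with no low-count filter (0.022) and without library 1 (0.11), 2 (0.013), 6 (0.065) or 8 (0.021). That of *Nqo1* changed with library quality weights (-0.11) and without library 3 (-0.11). *Mafk* changed to 0.20 and 0.25, and *Nox4* to 0.22 and 0.38, under the same settings. With each library left out, *Cat* ran from -0.12 to 0.11, *Nqo1* from -0.11 to 0.20, *Mafk* from -0.35 to 0.25 and *Nox4* from -1.08 to 0.38. The cause was not tested. The median over the 10 genes was -0.12 with library quality weights and -0.0083 with no low-count filter. The other 8 antioxidant genes kept their sign throughout. The count of antioxidant genes that did not overlap between the *Vdac2* sets, 3, was 4 with CPM from the plain library total, where 11.3% of all genes were higher and 2.66% lower, and 3 to 5 with each of the 8 libraries left out. The 5 were found without library 9, where *Gclm* was also higher and *Sod2* lower, and where 9.55% of all genes were higher and 8.30% lower. Without library 4 or 7 *Txnrd1*, and without library 2 *Cat*, was the additional gene, with 9.06% of all genes higher and 6.82% lower without library 4, 9.91% and 7.72% without library 7, and 8.77% and 6.11% without library 2. No paired analysis was possible because each library has its own number in the labels.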

Other observations

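*Slc7a11*, which encodes the cystine transporter that feeds glutathione synthesis, is named here after its values were seen. It was at 1.84, 1.19, 0.712 and 0.369 CPM in libraries 1, 5, 7 and 9, at 0.146, 0.495, 0.133 and 0.118 CPM in libraries 2, 4, 6 and 8, and at 2.13 CPM in library 3. The sets overlapped through library 9, labelled KO, which lay below library 4, labelled WT. Between the labels, edgeR gave, with all 9 libraries, a log2 fold change of -1.79 (SE 0.77, adjusted p = 0.68). The mean of *Slc7a11* was 0.79 CPM, under the 1 CPM asked of the named pathway genes. Libraries 2, 6 and 8 lay close to the 0.0693 to 0.114 CPM that 3 counts give. An estimate without library 3 is not given.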
